A study of Chlamydomonas reinhardtii with 18 samples.

Results

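The genes described here are named as sulfate transporters of the green alga Chlamydomonas reinhardtii, followed through transfer of the cells into medium without iron. They are all genes whose deposited symbol is SULTR or SLT followed by a number, which gave 6 of the 17741 genes in the table: SULTR1, SULTR2, SULTR4, SLT1, SLT2 and SLT3. Strain CC-4532 was grown at 24 °C and about 90 µmol photons of constant light in TAP, a medium with acetate, and was then spun down at 2500 g for 5 min. The cells were washed in TAP that lacked Fe-EDTA and transferred to more of the same (0 µM Fe-EDTA). The 18 samples form 9 groups of 2 cultures each, sampled at 7 times in that medium (5, 10 and 15 min, then 30, 60, 120 and, last, 240 min), directly after the wash (post-wash), and before it (pre-wash). All groups shared the strain, the acetate medium and the light. Every group after pre-wash was also pelleted and washed, and no group was washed into medium with iron, so time in fresh medium, handling and absence of iron cannot be told apart. The labels give the iron deprivation treatment for the pre-wash samples too, and the iron content of their medium is not stated in the sources used here.

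Polyadenylated RNA was sequenced, and the authors deposited a single FPKM value (read fragments relative to transcript length in kilobases and to all mapped fragments) for each gene at each sampling point, covering both cultures. No value therefore has a replicate error, no test can be run, and every difference below is described by its size. Genes are called higher or lower when log2(FPKM + 1) differs by at least 1, that is by 2-fold, among 12580 genes that reached 1 FPKM in no fewer than 2 columns, a filter that all 6 transporter genes passed. The columns sum to between 631357 and 762490 FPKM, and the depth of the libraries is unknown. Between the 10 and 15 min columns, the closest neighbours, the log2 differences of genes averaging 5 to 50 FPKM had a robust SD of 0.168, while between post-wash and pre-wash it was 0.494. FPKM gives a share of all messenger RNA, so more of a transcript per cell and less of the other transcripts cannot be told apart.

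Sulfate is the main sulfur source of the alga. It is taken up across the plasma membrane, carried into the chloroplast by a separate permease, activated to adenylyl sulfate, and reduced to sulfide for cysteine and methionine. In Chlamydomonas, SULTR2 belongs to the proton-coupled SULTR family that plants also have, while SLT1 and SLT2 are sodium-coupled carriers related to SAC1, a membrane protein that governs the response to sulfur status. SULTR2, SLT1 and SLT2 are known as the uptake proteins of the plasma membrane that increase when sulfate runs out. The annotation in the deposited table describes SLT1 and SLT2 transcripts as higher and SLT3 transcripts as lower in sulfur-deprived cells. It gives SULTR1 no product, and it lists SULTR4 as a transporter of the major facilitator superfamily beside Arabidopsis genes that include the molybdate transporter MOT1.

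In iron-free medium 4 of the 6 genes had a transient maximum at 30 or 60 min, and the other 2, SULTR1 and SULTR4, did not. SULTR2 and SLT3 were highest at 30 min, SLT1 and SLT2 at 60 min. By 240 min none of the 6 genes differed by 2-fold from pre-wash. The highest value of SULTR2 was 12.0 times its lowest, and that of SLT1 was 18.8 times its lowest, whereas the ratio was 3.69 for SLT2, 3.14 for SLT3, 4.30 for the scarce SULTR4 and 1.88 for SULTR1. On the log2(FPKM + 1) scale the range over the 9 columns was 3.47 for SULTR2 and 3.43 for SLT1. Of the 12580 genes, 1.07% and 1.11% had a range as large or larger. For the other members that share was 13.9% (SLT2), 18.5% (SLT3), 40.7% (SULTR4) and 59.7% (SULTR1). The members were chosen with earlier results of these data known.

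**Figure D1:**
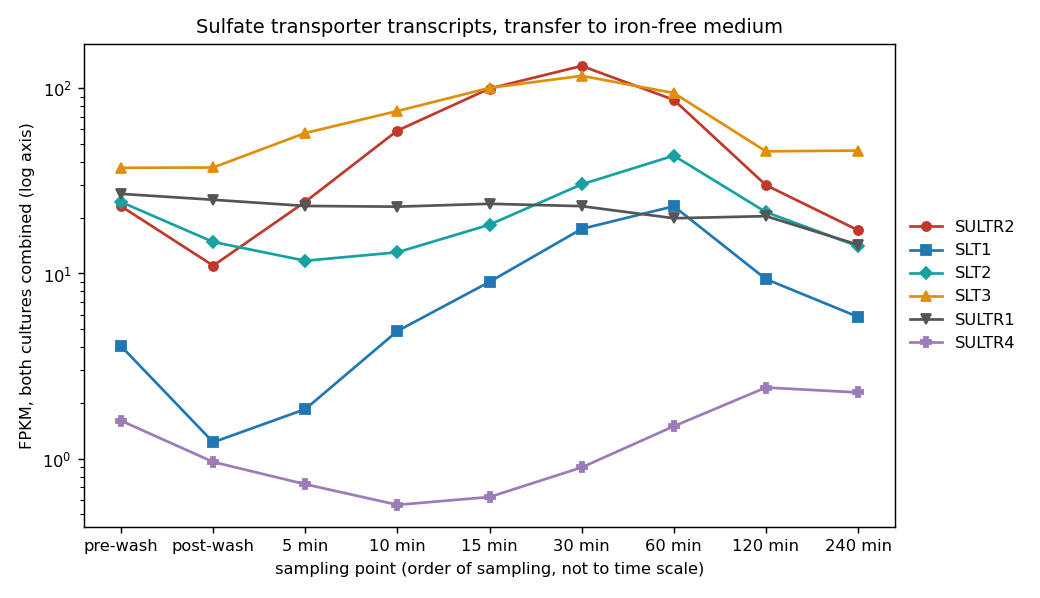
FPKM (log axis) of the 6 sulfate transporter genes at the 9 sampling points, each point being the authors' value for both cultures. SULTR2 and SLT3 peak at 30 min at 132 and 117 FPKM, SLT1 and SLT2 at 60 min at 23.1 and 43.3 FPKM, while SULTR1 lies between 14.3 and 26.9 FPKM throughout.

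SULTR2 (Cre17.g723350), the SULTR-family uptake carrier, had 23.1 FPKM pre-wash and 11.0 post-wash, 24.4 (5 min), 59.1 (10 min), 99.7 (15 min), 132 (30 min), 86.6 (60 min), 30.0 (120 min) and 17.1 (240 min). The post-wash value was the lowest of the 9 and the values at 10 to 60 min were all above every other one. Its level at 30 min, 132 FPKM, was 5.73 times the pre-wash and 12.0 times the post-wash level, with log2 differences of 2.47 and 3.47. At 5 min it was already at 2.21 times the post-wash level (log2 difference 1.08) but at only 1.06 times the pre-wash level (0.08, and -0.28 under quantile normalization). The post-wash value was 2.09-fold below pre-wash, and by 10 min the level was 2.56 times the pre-wash one.

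SLT1 (Cre12.g502600), a sodium-coupled carrier of low abundance, had 4.05 FPKM pre-wash and 1.23 post-wash, 1.85 (5 min), 4.89 (10 min), 9.01 (15 min), 17.4 (30 min), 23.1 (60 min), 9.32 (120 min) and 5.83 (240 min). As with SULTR2 the post-wash column was the lowest, and the value at 60 min was the highest. At 60 min SLT1 was at 5.70 times the pre-wash and 18.8 times the post-wash level (log2 differences 2.25 and 3.43). On the log2(FPKM + 1) scale the difference from a post-wash value near 1 FPKM is smaller than the plain ratio implies, since 1 is added to both. SLT1 was the only one of the 6 genes still 2-fold above pre-wash at 120 min (9.32 against 4.05 FPKM, 1.03) and above post-wash at 240 min (5.83 against 1.23 FPKM, 1.62).

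SLT2 (Cre10.g445000), the other sodium-coupled uptake carrier, had 24.3 FPKM pre-wash, 14.8 post-wash, 11.7 (5 min), 13.0 (10 min), 18.3 (15 min), 30.3 (30 min), 43.3 (60 min), 21.4 (120 min) and 14.0 (240 min). Its lowest value came at 5 min, later than those of SULTR2 and SLT1. At 60 min it was 2-fold above post-wash (ratio 2.92, log2 difference 1.49) but not above pre-wash (1.78, 0.81), and its 5 min level was 2.08-fold below pre-wash (log2 difference -0.99). Its small difference from pre-wash at 30 min, 0.31, was -0.048 under quantile normalization.

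SLT3 (Cre10.g445050), a putative sodium/sulfate co-transporter, was the most abundant of the 6 genes except at 30 min. It had 37.2 FPKM pre-wash and 37.4 post-wash, 57.4 (5 min), 75.4 (10 min), 100.5 (15 min), 117 (30 min), 94.3 (60 min), 45.7 (120 min) and 46.1 (240 min). Unlike the others that peaked, it had near-equal values before and after the wash, so its ratio at 30 min was 3.14 to pre-wash and 3.13 to post-wash (log2 differences 1.62 and 1.62). SLT2 and SLT3 lie next to each other on chromosome 10 with no annotated gene between them, and their courses differed. At 5 min SLT3 was at 1.54 times and SLT2 at 0.792 times the post-wash level. Whether reads could have been assigned to either of the related SLT genes was not tested.

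SULTR1 (Cre10.g457750) had 26.9 FPKM pre-wash and 25.0 post-wash, 23.2 (5 min), 22.9 (10 min), 23.8 (15 min), 23.1 (30 min), 19.9 (60 min), 20.4 (120 min) and 14.3 (240 min). Its first 6 values lay within 22.9 to 26.9 FPKM, and its lowest, at 240 min, was 1.88-fold below pre-wash (log2 difference -0.87). SULTR4 (Cre04.g214050) was the least abundant, with 1.60 FPKM pre-wash, 0.959 post-wash, 0.727 (5 min), 0.563 (10 min), 0.620 (15 min), 0.896 (30 min), 1.50 (60 min), 2.42 (120 min) and 2.28 (240 min). It was lowest when SULTR2 and SLT3 were climbing and highest at 120 min, and no difference from pre-wash or post-wash reached 2-fold on the log2(FPKM + 1) scale. With a pseudocount of 0.1 SULTR4 was 2-fold lower than pre-wash at 5, 10 and 15 min and 2-fold higher than post-wash at 120 and 240 min.

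The wash itself is the comparison of post-wash with pre-wash cells. SULTR2 (11.0 against 23.1 FPKM, log2 difference -1.002) and SLT1 (1.23 against 4.05 FPKM, -1.18) were 2-fold lower post-wash, 2 of the 6 genes, where 1.18% of all kept genes were 2-fold lower and 8.47% higher. SULTR2 lies on the threshold, and under median-of-ratios scaling only SLT1 met it. SLT2 (14.8 against 24.3 FPKM, -0.68), SULTR4 (0.959 against 1.60 FPKM, -0.41) and SULTR1 (25.0 against 26.9 FPKM, -0.10) were also lower without meeting the rule.

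Against pre-wash, 0 of the 6 genes were 2-fold higher at 5 min (8.78% of all genes), 2 at 10 and 15 min (7.44% and 7.2%), 3 at 30 and 60 min (5.53% and 4.05%), 1 at 120 min (2.33%) and 0 at 240 min (4.38%), and none were 2-fold lower at any of these times. Of all genes 1.61% (5 min), 1.69% (10 min), 2.18% (15 min), 3.74% (30 min), 3.66% (60 min), 1.72% (120 min) and 4.94% (240 min) were 2-fold lower. The 2 genes at 10 and 15 min were SULTR2 and SLT3, and SLT1 was added at 30 and 60 min. The median log2 difference of the 6 genes was 0.97 at 30 min and 1.06 at 60 min, against 0.07 and 0.01 over all kept genes. SLT3 at 10 min (75.4 against 37.2 FPKM) lay on the threshold at 1.00. Under quantile normalization neither SULTR2 nor SLT3 reached 2-fold at 10 min, while SLT2 was 2-fold lower at 5 and 10 min. With a pseudocount of 0.1, SULTR4, SLT1 and SLT2 were 2-fold lower at 5 min, and SULTR4 at 10 and 15 min. The early calls thus depend on the scaling and on the pseudocount. SLT1 at 15 min (9.01 against 4.05 FPKM) lay just short of the threshold at 0.99 and passed it under median-of-ratios scaling and with a pseudocount of 0.1.

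Against post-wash, 1 gene was 2-fold higher at 5 min (1.87% of all genes), 2 at 10 min (3.6%), 3 at both 15 and 30 min (5.15% and 8.92%), 4 at 60 min (7.41%), 2 at 120 min (4.35%) and 1 at 240 min (6.48%). None were 2-fold lower, beside 0.97% (5 min), 2.57% (10 min), 3.86% (15 min), 10.1% (30 min), 14.4% (60 min), 10.1% (120 min) and 12.3% (240 min) of all genes. SULTR2 was the gene at 5 min, SLT1 joined at 10 min, SLT3 at 15 min and SLT2 at 60 min. SLT3 at 10 min and SLT2 at 30 min were both at 0.99, with plain ratios of 2.02 and 2.05. With a pseudocount of 0.1 both passed the threshold, and SLT3 did so under median-of-ratios scaling too. All comparisons with post-wash reuse that 1 column, as do those with pre-wash, and any error there is shared by all of them. At 30 min SULTR2 (132 against 11.0 FPKM) ranked number 11 and SLT1 (17.4 against 1.23 FPKM) number 23 from the top among the 12580 genes.

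**Figure D2:**
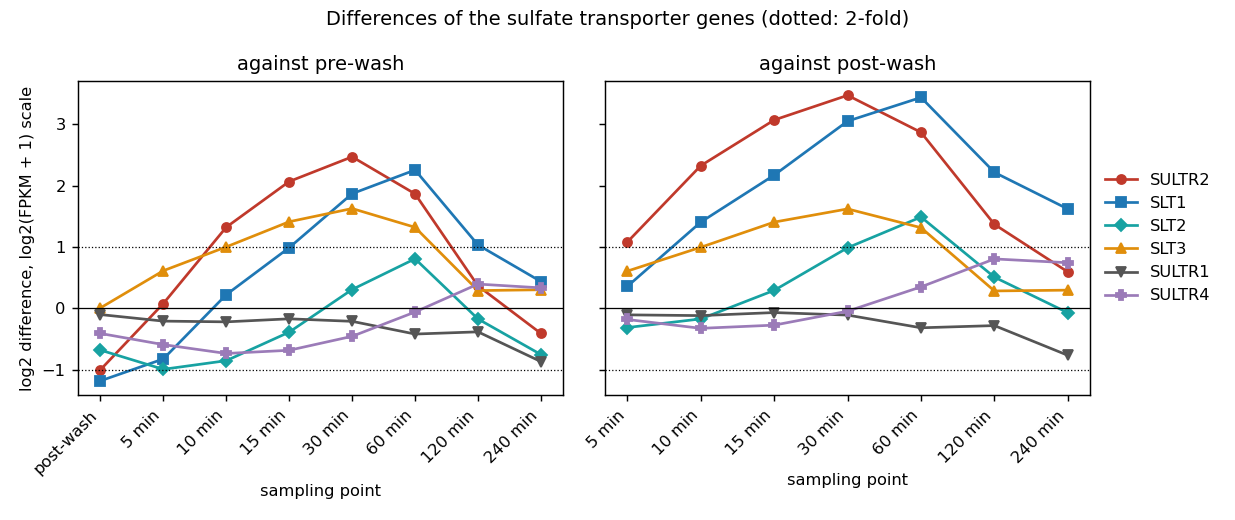
Log2 difference (log2(FPKM + 1) scale) of the 6 sulfate transporter genes at each sampling point against pre-wash (left) and against post-wash (right), with dotted lines at 2-fold. SULTR2 reaches 2.47 and 3.47 at 30 min and SLT1 2.25 and 3.43 at 60 min, while SULTR1 stays below 0 in both panels.

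Step by step, the largest differences between neighbouring time points from 5 to 240 min for SULTR2 and SLT1 were those from 5 to 10 min and from 60 to 120 min. From 5 to 10 min, when 0.199% of all genes were 2-fold higher, SULTR2 (59.1 against 24.4 FPKM, log2 difference 1.24) and SLT1 (4.89 against 1.85 FPKM, 1.05) both were, at ranks 8 and 22 of 12580. From 10 to 15 min SULTR2 was 1.69-fold and SLT1 1.84-fold higher, ranks 24 and 19, in the step with the fewest large differences of the series (0.0238% of genes 2-fold higher and 0.0318% lower). None of the 6 genes was 2-fold lower from 5 to 10 min, beside 0.191% of all genes. From 15 to 30 min the gain of SULTR2 was only 1.32-fold, while SLT1 gained 1.93-fold and SLT2 1.65-fold, and 0 of the 6 were 2-fold higher or lower, beside 0.548% and 2.25% of all genes. From 30 to 60 min 0 of the 6 were either, beside 0.803% and 2.46%.

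Between 60 and 120 min 3 of the 6 genes were 2-fold lower, where 1.37% of all genes were, and 0 were 2-fold higher, beside 1.87%. SULTR2 (30.0 against 86.6 FPKM, log2 difference -1.50) ranked number 41 from the bottom, SLT1 (9.32 against 23.1 FPKM, -1.22) number 88 and SLT3 (45.7 against 94.3 FPKM, -1.03) number 162. SLT2 (21.4 against 43.3 FPKM, -0.98) lay just short of the threshold. From 120 to 240 min SULTR2 was a further 1.75-fold lower and SLT1 1.60-fold lower, while SLT3 was level at 46.1 against 45.7 FPKM. None of the 6 was 2-fold higher or lower in that last step, beside 0.795% and 0.922% of all genes.

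At 10 and 15 min SULTR2 had reached 44.8% and 75.5% of its own maximum, and SLT3 64.5% and 86.0%. For SLT1 the shares were 21.2% and 39.1%, with 75.5% at 30 min, and for SLT2 30.1%, 42.4% and 70.0%. SULTR2 and SLT3 were thus nearer their maximum than SLT1 and SLT2 at each of 10, 15 and 30 min. Over the 9 columns the Pearson correlation of log2(FPKM + 1) was 0.95 between SULTR2 and SLT3, 0.81 between SLT1 and SLT2, 0.80 between SULTR2 and SLT1, and 0.42 between the neighbours SLT2 and SLT3. SULTR1 and SULTR4 had r of 0.12 and -0.38 with SULTR2. These are descriptions of 1 course sampled 9 times, with no test.

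Because FPKM is scaled per length, levels of the 6 genes can be set side by side. Their summed level was 117 FPKM pre-wash, 90.4 post-wash, 119 (5 min), 176 (10 min), 252 (15 min), 321 (30 min), 269 (60 min), 129 (120 min) and 99.6 (240 min). The 30 min sum was thus the highest and the post-wash sum the lowest of the 9. SULTR2 made up 19.7% of the sum pre-wash, 12.2% post-wash, 41.2% at 30 min and 17.2% at 240 min. SULTR1 made up 23.0% pre-wash, 27.7% post-wash, 7.21% at 30 min and 14.3% at 240 min. SLT3 held between 31.8% (pre-wash) and 48.1% (5 min) at all points, and SLT1 between 1.36% (post-wash) and 8.59% (60 min).

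The order of the levels was SLT3, SULTR1, SLT2, SULTR2, SLT1 and SULTR4 both pre-wash and post-wash. SULTR1, SLT2 and SULTR2 lay close together pre-wash, at 26.9, 24.3 and 23.1 FPKM, an order with no spread to judge it by. SULTR2 was second from 5 min on and first at 30 min, ahead of SLT3 by 132 to 117 FPKM. SLT1 stood last but one except at 60 min, when it exceeded SULTR1 by 23.1 to 19.9 FPKM.

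**Figure D3:**
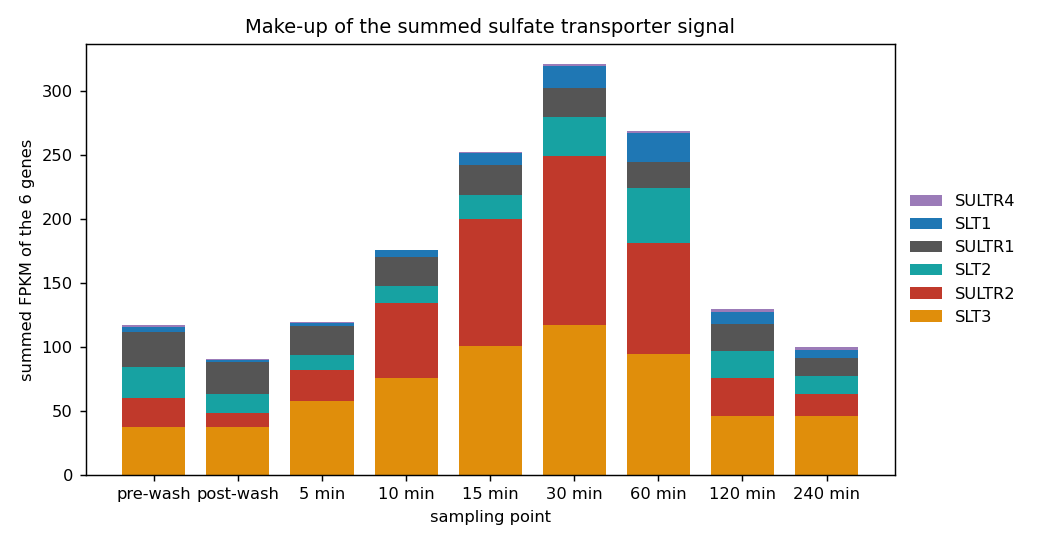
Summed FPKM of the 6 sulfate transporter genes at each sampling point, divided by gene, from the authors' combined values. The sum is 321 FPKM at 30 min, when SULTR2 makes up 41.2% of it, against 90.4 FPKM post-wash.

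Another gene, Cre09.g401293, carries no symbol in the symbol column and is not among the 6, but its annotation calls it a sulfate transporter with the synonym SUL3. It was chosen after its values were seen, because its course ran the other way. SUL3 had 4.84 FPKM pre-wash and 32.5 post-wash, 30.5 (5 min), 26.3 (10 min), 20.8 (15 min), 8.11 (30 min), 3.30 (60 min), 3.05 (120 min) and 4.56 (240 min). Post-wash it was at 6.71 times its pre-wash level (log2 difference 2.52), while SULTR2 and SLT1 were lower, and at 60 min it was 9.82-fold below post-wash (-2.96), while SULTR2 and SLT1 were higher.

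The other genes of sulfur metabolism put the transporters in context. Lists in 7 groups named 49 genes, of which 36 passed the filter, and 13 were below 1 FPKM in every column. At 30 min 4 of the 36 (11.1%) exceeded post-wash by 2-fold while 0 were 2-fold lower, beside 8.92% and 10.1% of all genes, and the median was 0.11, beside -0.01 over all genes. At 60 min 6 (16.7%) were higher and 0 lower, beside 7.41% and 14.4% (median 0.26, beside 0.02). Against pre-wash 2 (5.56%) were higher at 30 min and 3 (8.33%) at 60 min, beside 5.53% and 4.05%. At these times 0 were lower, beside 3.74% and 3.66% of all genes. The counts of higher genes at 30 min, and of lower genes against pre-wash, were thus near the share of all genes called. At 60 min the shares of higher genes lay above those of all genes, 16.7% beside 7.41% against post-wash and 8.33% beside 4.05% against pre-wash. The 0 lower against post-wash lay below the 10.1% of all genes at 30 min and the 14.4% at 60 min. None of these differences was tested.

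The chloroplast sulfate permease was the group with the highest median at 30 min, 0.96 against post-wash and 0.65 against pre-wash, with 2 of 4 genes 2-fold higher than post-wash (8.92% of all genes) and 0 than pre-wash (5.53%). SULP3, the sulfate-binding subunit, had 12.6 FPKM pre-wash, 7.69 post-wash, 8.23 (5 min), 10.5 (10 min), 14.4 (15 min), 23.8 (30 min), 24.7 (60 min), 13.6 (120 min) and 10.2 (240 min). SULP1, a membrane subunit, was at 26.8 FPKM at 30 min against 11.0 post-wash and 15.4 pre-wash (log2 differences 1.21 and 0.76). SULP2, the other membrane subunit, was at 30.0 FPKM at 30 min against 20.1 post-wash and 24.2 pre-wash, and SABC, annotated as a chloroplast sulfate transporter, at 33.3 against 19.9 and 22.8. Like SULTR2 and SLT1, all 4 genes were lower post-wash than pre-wash, SULP3 by the most (-0.65), though none by 2-fold.

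In sulfate activation and reduction, 1 of 5 genes was 2-fold higher than post-wash at 30 and 60 min (8.92% and 7.41% of all genes) and 0 were lower (10.1% and 14.4%). This was SIR3, a sulfite reductase, at 15.2 FPKM at 30 min and 15.8 at 60 min, against 6.10 post-wash and 6.77 pre-wash. The ATP sulfurylase gene ATS1, which makes adenylyl sulfate and was far more abundant, lay between 316 and 409 FPKM over all 9 columns, ATS2 between 15.5 and 28.3, the adenylyl sulfate kinase gene APK1 between 36.6 and 45.1, and the adenylyl sulfate reductase gene APR1 between 138 and 283.

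Arylsulfatases free sulfate from organic esters outside the cell, and the periplasmic enzymes ARS1 and ARS2 and the extracellular proteins ECP76 and ECP88 are known markers of sulfur-starved Chlamydomonas. ARS1 was highest pre-wash at 0.655 FPKM and ARS2 at 0.703 FPKM, both genes being chosen after their values were seen. Post-wash ARS1 was at 0.0526 FPKM, ARS2 at 0.118, ECP76 at 0.288 and ECP88 at 0.0248. At 30 min, when SULTR2 stood at 132 FPKM, ARS1 was at 0.187 FPKM, ARS2 at 0.528, ECP76 at 0.145 and ECP88 at 0.0405. ARS1, ARS2 and ECP88 were thus above their post-wash values and ECP76 below its own, all at levels too low to judge. The highest value of ECP76 in any column was 0.471 FPKM and of ECP88 0.0738 FPKM. These 4 genes were below 1 FPKM in all 9 columns and did not pass the filter. Of the 18 arylsulfatase genes listed, 9 were below 1 FPKM in every column. Among the scavenging genes that passed, 0 of 10 were 2-fold higher or lower than post-wash at 30 or 60 min. Of all genes 8.92% were higher and 10.1% lower at 30 min, and 7.41% and 14.4% at 60 min, so a count of 0 in 10 genes is near the background. ARS5, the most abundant arylsulfatase gene of the list and chosen after its values were seen, had 33.6 FPKM pre-wash and 33.1 post-wash, 51.2 (5 min), 54.3 (10 min), 61.5 (15 min), 59.7 (30 min), 55.5 (60 min), 31.4 (120 min) and 23.2 (240 min). Its values at 5 to 60 min were all above the others, without reaching 2-fold against pre-wash or post-wash, and r with SULTR2 over the 9 columns was 0.82. CDO1, a cysteine dioxygenase, was 2-fold higher than pre-wash at 30 min (16.7 against 6.88 FPKM, 1.16) and just short of it against post-wash (16.7 against 7.85 FPKM).

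Of the regulators of the sulfur response, SAC1 had 9.81 FPKM pre-wash, 14.4 post-wash, 15.1 (5 min) and 9.40 (30 min), and SAC3, a protein kinase, had 39.6, 40.4, 43.8 and 57.3 FPKM at those points. Neither reached 2-fold at any time against pre-wash or post-wash. Among 10 genes of cysteine and methionine synthesis 0 were 2-fold higher or lower than post-wash at 30 min, beside 8.92% and 10.1% of all genes. At 60 min 1 of the 10, the methionine synthase gene METE (log2 difference 1.35), was 2-fold higher and 0 were lower, beside 7.41% and 14.4%. In the group for glutathione and sulfolipid, 1 of 4 genes was 2-fold higher than post-wash at 30 min (8.92% of all genes). At 60 min 2 of the 4 were higher (7.41%), and at both times 0 were lower (10.1% and 14.4%). The gene at 30 min was SQD2, a sulfolipid synthase, at 9.08 FPKM against 3.69 post-wash (1.10) and 6.58 pre-wash (0.41).

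Transporters of other nutrients were set beside the sulfate transporters. Of 27 listed genes for phosphate, ammonium and nitrate transport 14 passed the filter, and at 30 min 2 (14.3%) exceeded post-wash by 2-fold while 0 were lower (median 0.03), beside 8.92% and 10.1% of all genes. These were AMT7, an ammonium transporter (52.1 against 22.9 FPKM, 1.15), and PTA2, a proton/phosphate symporter (3.97 against 1.28 FPKM, 1.13). At 60 min 3 of the 14 (21.4%) were 2-fold higher and 4 (28.6%) lower than post-wash (median -0.08), beside 7.41% and 14.4%. Against pre-wash 0 of the 14 were 2-fold higher or lower at 30 min, beside 5.53% and 3.74%.

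**Figure D4:**
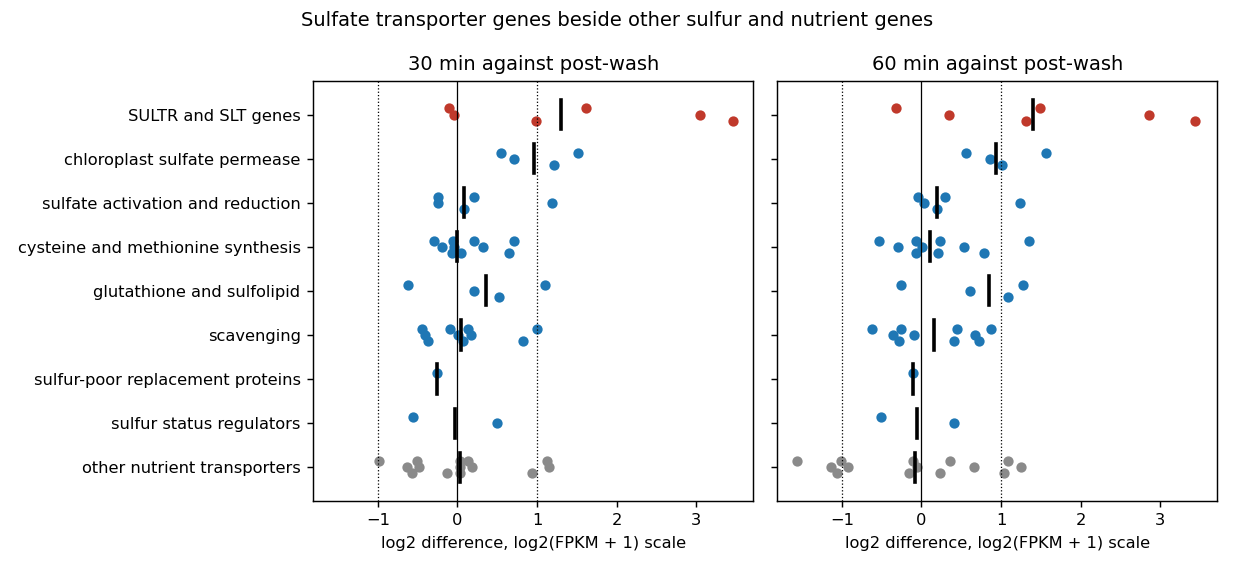
Log2 difference at 30 min (left) and 60 min (right) against post-wash for the 6 SULTR and SLT genes (red), the genes of the 7 sulfur groups that passed the filter (blue) and transporters of other nutrients (grey), with medians as black bars and dotted lines at 2-fold. SULTR2 and SLT1 lie at 3.47 and 3.05 at 30 min, beyond the other points, of which SULP3 comes next after SLT3 at 1.52.

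The genes with the course most like SULTR2 were taken from 1893 others with a symbol, a highest level of 5 FPKM or more and a range of at least 1 on the log2 scale. By Pearson r over the 9 columns they were BCS1 (0.98), a factor for assembly of the mitochondrial cytochrome bc1 complex, NRX2 (0.98), a nucleoredoxin, AGD1 (0.98), an arogenate or prephenate dehydrogenase, MFT11 (0.98), a major facilitator annotated as a sodium-dependent phosphate transporter, and MFT26 (0.98). BCS1 was at 66.8 FPKM pre-wash, 38.0 post-wash, 309 at 15 min, 309.6 at 30 min and 45.6 at 240 min. NRX2 was at 18.1, 10.6, 76.8, 130.1 and 10.7 FPKM at the same points, close to SULTR2 in level as well.

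For SLT1 they were GSF1 (0.98), a ferredoxin-dependent glutamate synthase, FAD5A (0.98), a delta-9 desaturase, TIM16 (0.97), a subunit of the mitochondrial import motor, CFA1 (0.97), a cyclopropane fatty acid synthase, and MRPL19 (0.97), a mitochondrial ribosomal protein. GSF1 was at 84.5 FPKM pre-wash, 66.1 post-wash and 154 at 60 min, so the shape resembles SLT1 while the size of the difference does not. CFA1 came closer in size, at 7.41, 3.19 and 21.2 FPKM. By the same measure SLT3 held place 22 for SULTR2, but SLT1 place 209, SLT2 511, SULTR1 862 and SULTR4 1486. For SLT1, SULP3 held place 24, but SLT2 place 175, SULTR2 190, SLT3 282, SULTR4 776 and SULTR1 1083.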

How the data were processed

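Polyadenylated RNA of 18 samples was sequenced. The authors deposited FPKM values, 1 column per time point for both cultures. STAR 2.4.1 and Cuffdiff 2.0.2 are named, per the submitters' processing notes, and gene IDs are those of annotation 5.6, per the file headers. For strand use the sources used here give nothing. Depth is unknown, since whole reads could not be recovered from low values. A planned limma fit over replicates was not run because there is 1 column per time point. Differences of log2(FPKM + 1) were computed with Python 3.11.15, numpy 2.4.6 and pandas 2.3.3. The members and gene lists were chosen with earlier results of these data known. The named genes are all members, listed genes that met the 2-fold rule or belong to a group of 6 or fewer, and the 5 genes of highest Pearson correlation with SULTR2 and with SLT1. ARS1, ARS2, ARS5 and SUL3 fall outside that rule and were chosen after their values were seen. In the lists, 2 symbols whose deposited product is another protein were left out. RefSeq (assembly 5.5) served for gene neighbours and matched 17738 of 17741 IDs. Another 9 columns belong to a long time course, not to these 18 samples, and were not used. Alternatives were another pseudocount, other filters, scalings, baselines and a rank correlation.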

Additional observations from a re-analysis of the deposited data

How the results depend on the processing

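No paired analysis was possible because the table has 1 column per time point for both cultures, and for the same reason no culture could be left out. A filter on low values decides only which genes are counted and cannot change a gene's own difference. The differences of the 6 sulfate transporter genes were therefore bound to stay the same without a filter (90 of 90). The same holds for a minimum of 5 FPKM (75 of 75, SULTR4 not passing). Under median-of-ratios scaling 90 of 90 stayed within the spread between neighbouring columns. Its log2 scaling factors were small, from 0.001 (5 min) to 0.033 (pre-wash), so little movement was possible there either. With a pseudocount of 0.1, 23 of 90 moved by more, and under quantile normalization 30 of 90. Quantile normalization put the median of all genes at -0.12 for post-wash against pre-wash and at 0.11 for 60 min against post-wash. At 30 min against pre-wash, a pseudocount of 0.1 gave 2.08 for SLT1 in place of 1.87, 2 sulfur genes lower in place of 0, and 1114 of all genes lower in place of 470, and a minimum of 5 FPKM gave 296 of all genes lower. Quantile normalization gave 2.17 for SULTR2, -0.048 for SLT2, 1.27 for SLT3 and 0 sulfur genes higher in place of 2. At 30 min against post-wash, a pseudocount of 0.1 gave 3.72 for SLT1 in place of 3.05, and 1766 higher and 1931 lower of all genes in place of 1122 and 1274. With post-wash in place of pre-wash as baseline at 30 min, SULTR2 was at 3.47 in place of 2.47, SLT1 at 3.05 in place of 1.87 and SLT2 at 0.99 in place of 0.31, with 4 sulfur genes higher in place of 2, and 1122 of all genes higher and 1274 lower in place of 696 and 470. That swap gives the other comparison reported above, and each gene's shift is by definition its difference between pre-wash and post-wash. What caused that difference, and the other shifts, was not tested. With Spearman's rho, 3 of the 5 genes named for SULTR2 and 1 of the 5 for SLT1 stayed within the first 5 places, ties counted. Unknown depth limits the low values of SULTR4, SLT1 and the arylsulfatases most.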

Other observations

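At 240 min, when SULTR2 and SLT1 were within 2-fold of their pre-wash levels, METE had its lowest value and GSH1 and LHCBM9 their highest. Other listed genes did so too, such as APR1 (lowest) and ATS1 (highest). Of the 36 listed sulfur genes that passed the filter, 2 (5.56%) were then 2-fold higher and 2 (5.56%) lower than pre-wash. Of all genes 4.38% and 4.94% were, so these counts are near the background. Against post-wash 3 (8.33%) were higher and 1 (2.78%) lower, beside 6.48% and 12.3%. The genes lower than pre-wash were METE and ARS8 (1.77 against 5.06 FPKM). METE, the cobalamin-independent methionine synthase, had 274 FPKM pre-wash, 259 post-wash, 251 (30 min), 663 (60 min), 581 (120 min) and 77.4 (240 min). Its level at 240 min was 2-fold lower than pre-wash (log2 difference -1.81) and than post-wash (-1.73). GSH1, annotated as a glutathione synthetase, had 51.9 FPKM pre-wash, 62.1 post-wash, 71.9 (30 min), 95.5 (60 min) and 153 (240 min), and was 2-fold higher at 240 min than pre-wash (1.54) and post-wash (1.29).

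LHCBM9, a light-harvesting protein known to accumulate in sulfur-starved Chlamydomonas, had 32.8 FPKM pre-wash, 25.7 post-wash, 21.3 (30 min), 48.0 (120 min) and 80.7 (240 min). It was thus near its lowest when SULTR2 was highest, and at 240 min 2-fold higher than pre-wash (1.27) and post-wash (1.61). SQD1, which makes the sulfolipid head group, had 91.2 FPKM pre-wash, 76.2 post-wash, 109.9 (30 min) and 163 (60 min), a log2 difference at 60 min of 1.09 against post-wash and 0.83 against pre-wash. ARS8, annotated by symbol as an arylsulfatase, had 5.06 FPKM pre-wash and 1.90 post-wash. Of the 36 listed sulfur genes that passed the filter, it alone (2.78%) was 2-fold lower after the wash, beside 1.18% of all genes. With a minimum of 5 FPKM, 0 listed sulfur genes were 2-fold lower.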
